A study of Mus musculus with 16 samples.

Results

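Class I molecules of the major histocompatibility complex (MHC) carry peptides from inside the cell to its surface, where CD8 T cells read them. The proteasome cuts the peptides, the transporter made of TAP1 and TAP2 moves them into the endoplasmic reticulum, tapasin helps to load them, and a heavy chain leaves for the surface together with β2-microglobulin. NLRC5 acts on the promoters of these genes, interferon raises most of them, and PD-L1, the product of Cd274, is a surface ligand that restrains T cells and is also raised by interferon. The 10 genes described here were listed by name: the heavy chains H2-K1 and H2-D1, the light chain B2m, the transport and loading genes Tap1, Tap2 and Tapbp (tapasin), the immunoproteasome subunits Psmb8 and Psmb9, the transactivator Nlrc5, and Cd274. They are 10 of the 40840 genes in the count table and 10 of the 20444 that had at least 10 counts in total and were tested.

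All 4 groups share 1 genetic background, p53-/-; Myc hepatoblasts, which are liver progenitors of the mouse that lack the tumor suppressor p53 and overexpress Myc. RNA was sequenced after 48 hours and after 7 days of sorafenib (8.5 µM), a multikinase inhibitor used against hepatocellular carcinoma, or of the solvent DMSO. Each group has 4 replicates (16 libraries). The study compared drug with vehicle at each time to follow how tumor cells respond early and late. The mouse strain behind the line, and so its H2 haplotype, is not given in the sources used here, and no label says that replicates were separate cultures, so p-values measure the spread between these libraries. The study uses these cells as a model of hepatocellular carcinoma. Hnf4a and Alb, genes of hepatocytes that are also in the list of hepatoblast and epithelial markers read below, were near absent. Hnf4a had 0 counts in all libraries, and Alb had at most 1. Dlk1 (3488 to 38122 counts), Krt19 (865 to 3013) and Sox9 (204 to 1161), genes of liver progenitors and bile ducts, were present, as was the collagen gene Col1a1 (39863 to 81817).

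Total counts ranged from 16586254 to 30828427 per library. Replicate 2 of sorafenib for 48 hours stands apart. For genes after a place on chromosome 14 in genome order its counts were 0.605 times those before the place (a log2 step of -0.73, against at most 0.07 in any other library). Counts after the place made up 14.3% of this library and 20.8 to 21.6% of the others. The place precedes 8 of the 10 genes (7 on chromosome 17 and Cd274 on chromosome 19), and only B2m on chromosome 2 and Nlrc5 on chromosome 8 lie before it. Tests at 48 hours of genes after the place are therefore given with and without this library.

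The heavy chains show the main contrast within the pathway, so the promoters of H2-K1 and H2-D1 are printed here, with that of B2m. They are the 250 bases before the RefSeq gene start (build GRCm38.p6), 5′ to 3′ on the strand of the gene. H2-K1 lies at chr17:34000348-34000597 on the minus strand, H2-D1 at chr17:35262844-35263093 on the plus strand and B2m at chr2:122147437-122147686 on the plus strand. Capitals mark matches, on either strand, to 6 motifs: GGGANTCCC (an NF-κB site of the enhancer A type), the core of an interferon-stimulated response element (GAAA, NN and GAAA again), GAANNGAAA (a form of it shorter by 1 base), TTCNNNGAA (a gamma-activated site), TGACG (a core of the cAMP response element, as in the X2 box) and CCAAT (the Y box). No match overlapped another.
H2-K1: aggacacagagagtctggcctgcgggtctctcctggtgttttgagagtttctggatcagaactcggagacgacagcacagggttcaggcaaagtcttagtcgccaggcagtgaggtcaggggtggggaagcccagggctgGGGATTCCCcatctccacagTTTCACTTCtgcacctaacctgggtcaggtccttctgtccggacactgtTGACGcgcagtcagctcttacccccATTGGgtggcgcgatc
H2-D1: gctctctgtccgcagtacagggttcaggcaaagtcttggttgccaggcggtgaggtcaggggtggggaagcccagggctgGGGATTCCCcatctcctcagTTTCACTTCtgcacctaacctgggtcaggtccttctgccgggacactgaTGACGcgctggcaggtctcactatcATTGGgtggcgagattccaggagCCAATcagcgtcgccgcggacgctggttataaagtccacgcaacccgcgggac
B2m: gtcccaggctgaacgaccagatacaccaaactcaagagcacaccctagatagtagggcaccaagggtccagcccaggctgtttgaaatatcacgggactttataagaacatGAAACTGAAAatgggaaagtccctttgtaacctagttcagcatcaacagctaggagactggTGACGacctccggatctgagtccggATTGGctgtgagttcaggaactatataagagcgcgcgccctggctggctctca

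Both heavy chain promoters held the NF-κB motif, the shorter response element form, the X2 motif and the Y box in the same order. Over the 190 bases of the windows that could be aligned, 166 were identical (87.4%), against 49.8% of 203 aligned bases between H2-K1 and B2m. H2-D1 held a further Y box 53 to 49 bases before its start. The shared Y box began 76 bases before the start in H2-D1 and 16 in H2-K1. The H2-K1 window therefore ends before the stretch that would match this further Y box, and the windows do not compare it. B2m held the full response element core, the X2 motif and the Y box. Among 27025 promoters of the same length, the NF-κB motif was present in 0.64%, the response element core in 3.04%, its shorter form in 6.34%, the gamma-activated site in 7.18%, the X2 motif in 17.9% and the Y box in 34.5%. The RefSeq table held promoters for 8 of the 10 genes by symbol (all but Tap2 and Nlrc5), of which Psmb8 was the only one with a gamma-activated site and Cd274 held none of the 6 motifs in this window. A match describes these letters and is not evidence of binding.

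The levels of the 10 genes fell into 5 genes with more than 3 counts in every library and 5 near the limit of detection. Per kilobase of exon, the 5 genes with more than 3 counts in every library kept the order B2m, Tapbp, H2-K1, H2-D1, Cd274 in 3 of the 4 groups, and H2-D1 passed H2-K1 with sorafenib for 7 days. Exon lengths cover the exons of all transcripts of a gene (3185 bases for H2-K1, 2992 for H2-D1). The longest coding transcripts have 1663 and 2125 bases, so the order of genes with near levels, these 2 among them, depends on the length used. B2m had a level of 1041 ± 25.1 normalized counts per kilobase (SD, n = 4) with DMSO for 48 hours, where Tapbp had 291, H2-K1 215, H2-D1 27.8 and Cd274 4.48. With sorafenib for 48 hours the levels of Tapbp (230) and H2-K1 (229) did not differ beyond their spread, and without the lowered library H2-K1 (253) was level with Tapbp (249) and stood before it. The remaining 5 genes, Tap1, Tap2, Psmb8, Psmb9 and Nlrc5, were at or under 1.67 normalized counts per kilobase in every group, and no library held more than 13 counts of any of them. Normalized counts are counts scaled by library total and TMM factor to the mean library. In RNA from whole cultures, fewer cells of a type and less RNA per cell cannot be told apart.

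**Figure D1:**
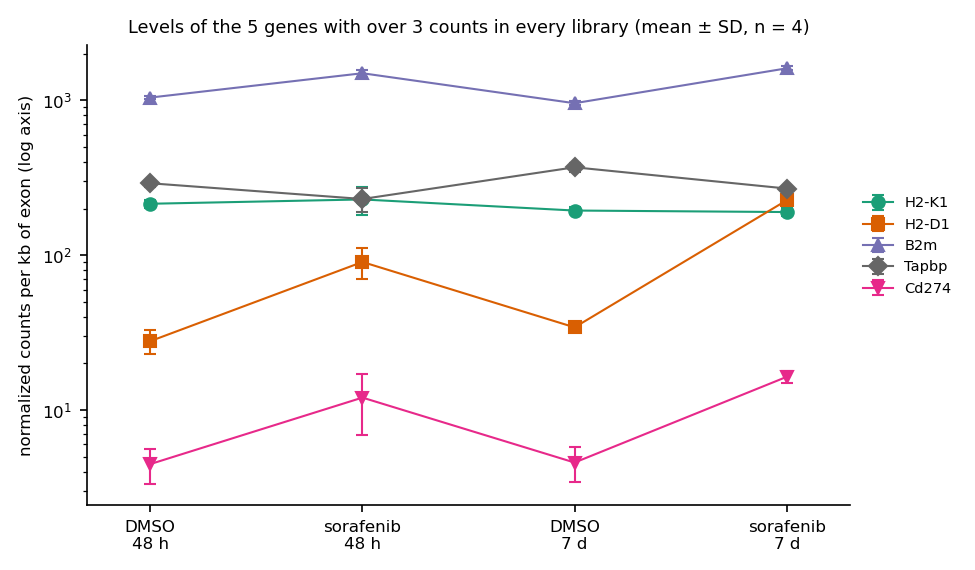
Level of the 5 genes with more than 3 counts in every library, by group, in normalized counts per kilobase of exon on a log axis (points, mean of 4 libraries; bars, SD; lines join groups for reading only). B2m is highest in every group, and H2-D1 climbs from 27.8 and 34.2 with DMSO to 90.3 and 226 with sorafenib, where it meets H2-K1.

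H2-D1, 1 of the 2 classical heavy chains, showed the largest fold change among these 5 genes at both times. With DMSO for 48 hours its 4 libraries held 80.2, 71.1, 104 and 77.8 normalized counts (replicates 1 to 4), and with sorafenib for 48 hours 297, 178, 311 and 294. At 7 days the vehicle libraries held 105, 98.5, 102 and 104, and the sorafenib libraries 674, 642, 694 and 696. Every sorafenib library lay above every DMSO library of its time, including the one with lowered counts. H2-D1 rose by 1.73 ± 0.14 on the log2 scale at 48 hours (3.31-fold, FDR = 1.33e-09, quasi-likelihood test of edgeR, adjusted by Benjamini-Hochberg over all genes tested) and by 2.72 ± 0.12 at 7 days (6.61-fold, FDR = 1.02e-13). Without the lowered library the value at 48 hours was 1.87 ± 0.10. The response at 7 days exceeded that at 48 hours by 1.00 ± 0.19 (FDR = 0.000291), and by 0.86 without that library.

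H2-K1, the other classical heavy chain, moved far less than H2-D1. Its libraries held 672, 639, 737 and 687 normalized counts with DMSO for 48 hours and 782, 501, 816 and 819 with sorafenib. At 7 days they held 651, 580, 634 and 608 with DMSO and 586, 620, 565 and 647 with sorafenib. The groups overlapped at both times, at 48 hours only through the lowered library, which was the lowest of all 16. H2-K1 did not pass the test at 48 hours (log2 fold change 0.11 ± 0.10, FDR = 0.409) or at 7 days (-0.03 ± 0.10, FDR = 0.820, 95% interval -0.23 to 0.17). Without the lowered library it was called higher at 48 hours by 0.24 ± 0.05 (1.18-fold, FDR = 0.000148), and its response at 7 days was then called smaller than at 48 hours (-0.27).

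The difference between the heavy chains was also read within each library, as the percent of H2-D1 among the counts of both genes, which the lowered counts after the place touch alike. H2-D1 made up 10.7, 10.01, 12.4 and 10.2% with DMSO for 48 hours and 27.6, 26.3, 27.6 and 26.4% with sorafenib. At 7 days it made up 13.9, 14.5, 13.8 and 14.6% with DMSO and 53.5, 50.9, 55.1 and 51.8% with sorafenib. No group overlapped another. The share rose by 16.2 percentage points at 48 hours and by 38.6 at 7 days, each with an exact two-sided permutation p of 0.0286, the smallest that 4 libraries against 4 allow, and 0.0286 after adjustment over 4 comparisons. With DMSO it was 3.40 points higher at 7 days than at 48 hours, with sorafenib 25.8 points, with the same p. This share was added after the data were seen.

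**Figure D2:**
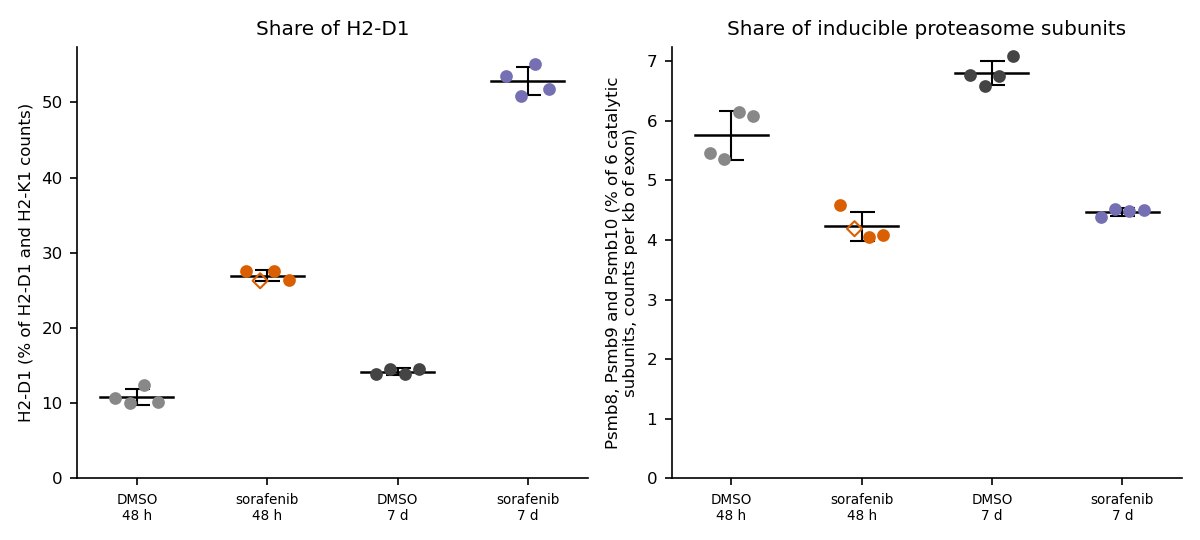
Left, H2-D1 as a percent of the counts of H2-D1 and H2-K1 in each library. Right, the inducible subunits Psmb8, Psmb9 and Psmb10 as a percent of all 6 catalytic subunits in counts per kilobase of exon (points, libraries; bars, mean ± SD of 4; open diamond, replicate 2 of sorafenib for 48 hours). The H2-D1 share goes from 14.2% to 52.8% at 7 days, and the inducible share from 6.80% to 4.47%.

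Class I heavy chain genes resemble each other, and reads can be placed on the wrong copy. In the GENCODE vM39 transcripts, 14.7% of the windows of 50 bases in the longest coding transcript of H2-D1 also occurred in a transcript of another gene (7.32% in H2-Q1, 5.54% in H2-K1), and 4.59% of windows of 100 bases. H2-K1 shared 8.06% of its windows of 50 bases and 0 of its windows of 100. The read length is not given in the sources used here. Long noncoding genes on the opposite strand overlap exons of both genes and had no row in the count table. With the counts of all listed heavy chain genes summed to 1 feature before the fit, the log2 fold change was 0.27 at 48 hours and 0.82 at 7 days. The value at 48 hours includes the lowered library and was not refitted without it. That library held 1499 normalized counts of the sum, replicates 1, 3 and 4 of its group 2028, 2144 and 2252, and the DMSO libraries of that time 1556 to 1712.

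B2m, the light chain common to all class I molecules, rose at both times by less than H2-D1. Its libraries held 2114, 2223, 2227 and 2207 normalized counts with DMSO for 48 hours and 3055, 3396, 3017 and 3125 with sorafenib. At 7 days the values were 1979, 2082, 2039 and 1963 with DMSO and 3428, 3429, 3239 and 3450 with sorafenib. The groups did not overlap at either time. The increase was 0.52 ± 0.04 on the log2 scale at 48 hours (1.43-fold, FDR = 4.38e-10) and 0.75 ± 0.04 at 7 days (1.68-fold, FDR = 1.29e-12), and the difference of the responses was 0.23 ± 0.05 (FDR = 0.00246). B2m lies before the place on chromosome 14 and moved little without the lowered library (0.48 at 48 hours).

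**Figure D3:**
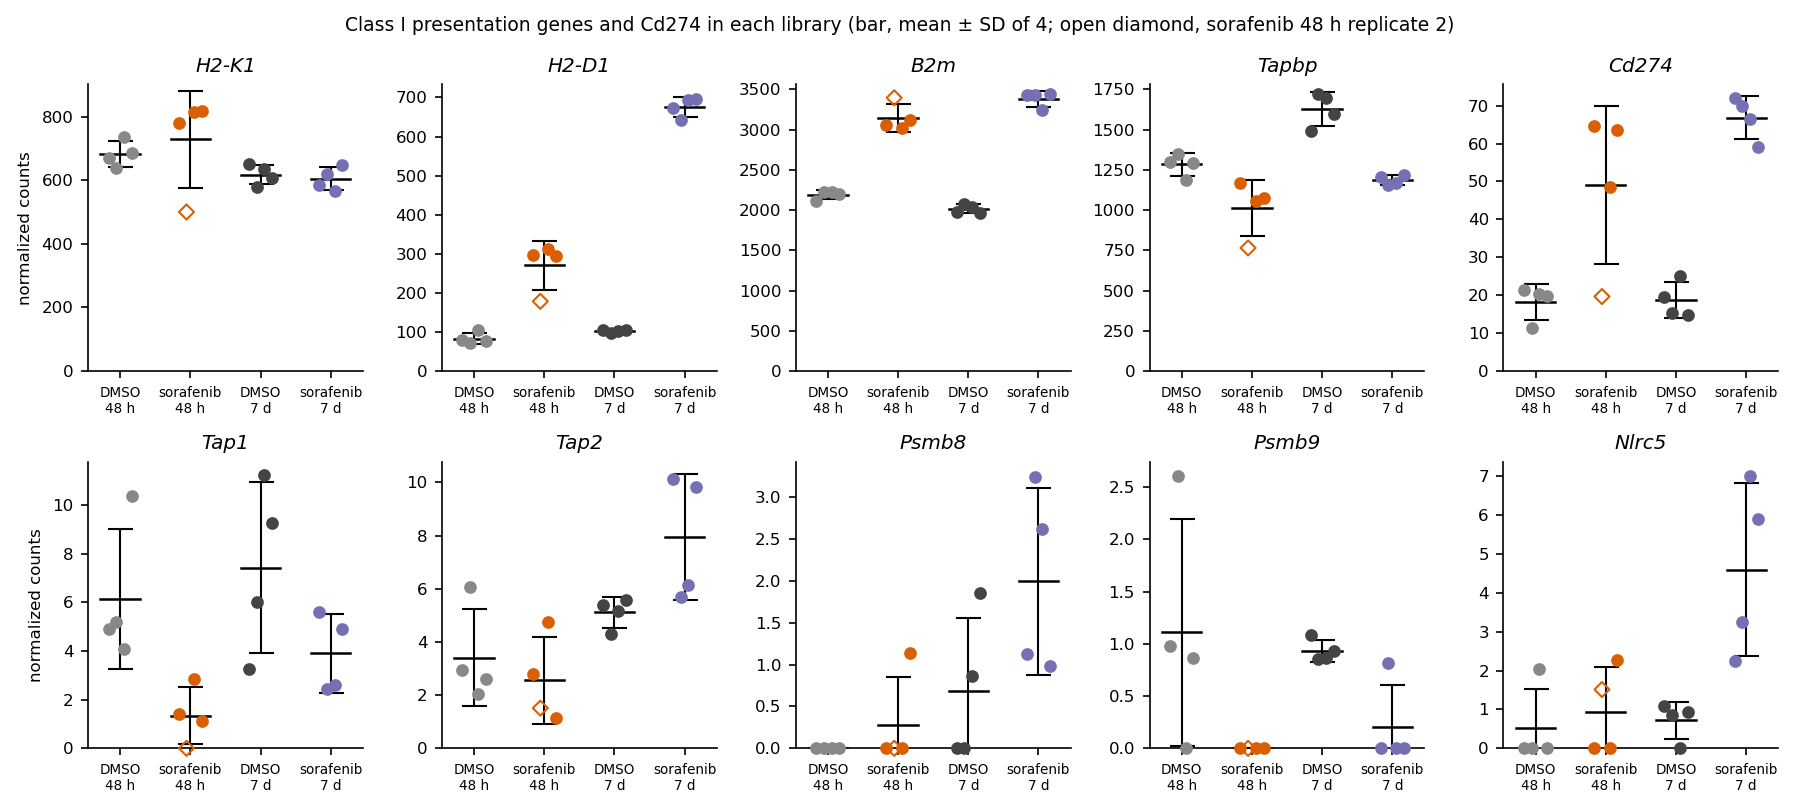
Normalized counts of the 10 genes in each library, 1 panel a gene with its own axis from 0 (points, libraries; bars, mean ± SD of 4; open diamond, replicate 2 of sorafenib for 48 hours). H2-D1, B2m and Cd274 sit higher with sorafenib, Tapbp lower, and the lower row shows genes with at most 13 counts in a library.

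Tapbp encodes tapasin, which bridges the heavy chain and the peptide transporter, and it fell at both times. Its libraries held 1302, 1352, 1186 and 1295 normalized counts with DMSO for 48 hours and 1169, 765, 1056 and 1074 with sorafenib. At 7 days they held 1493, 1724, 1696 and 1599 with DMSO and 1205, 1153, 1170 and 1220 with sorafenib. Sorafenib libraries lay below all DMSO libraries of the same time. Tapbp fell by 0.33 ± 0.08 on the log2 scale at 48 hours (FDR = 0.00214) and by 0.46 ± 0.08 at 7 days (FDR = 6.61e-05), and without the lowered library by 0.23 at 48 hours. Tapbp shares 923 of its 4409 exon bases with Zbtb22 on the same strand and 1130 with a noncoding gene on the other, so part of its reads could be counted elsewhere.

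Tap1 and Tap2, the chains of the peptide transporter, were scarce. Tap1 had 5, 6, 4 and 12 counts in the libraries with DMSO for 48 hours and 1, 0, 3 and 1 with sorafenib, and the totals of 27 and 5 gave a ratio of 0.242 (95% interval 0.0727 to 0.636, counting error only). It was called lower at 48 hours (FDR = 0.0122, and 0.0309 without the lowered library) and not at 7 days, where 33 counts with DMSO stood against 16 with sorafenib (ratio 0.490, FDR = 0.0860). Tap2 had 15 counts against 9 at 48 hours and 22 against 33 at 7 days and passed the test at neither time (FDR = 0.647 and 0.194). Between the sorafenib groups Tap2 was higher at 7 days than at 48 hours (33 counts against 9, ratio 2.83, interval 1.33 to 6.73, FDR = 0.0144). That call was lost without the lowered library (FDR = 0.0512). Tap1 shares 743 exon bases with Psmb9 on the opposite strand.

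Psmb8 and Psmb9 replace catalytic subunits of the standard proteasome when interferon acts on a cell, and both were at the limit of detection. Psmb8 had 0 counts in every library with DMSO for 48 hours, 0, 0, 0 and 1 with sorafenib, 0, 0, 1 and 2 with DMSO for 7 days, and 1, 4, 3 and 1 with sorafenib, and passed no test. Psmb9 had at most 3 counts in any library and 0 in all 4 with sorafenib for 48 hours. It was called lower at 48 hours (FDR = 0.0420), a call lost without the lowered library (FDR = 0.0903), and no fold is given because both groups were at or under the floor of 3 counts. The third inducible subunit, Psmb10, was far above the floor and lower with sorafenib (log2 fold change -0.37 ± 0.06 at 48 hours, -0.70 ± 0.05 at 7 days, FDR = 4.72e-10). Its standard counterpart Psmb7 was higher at 48 hours (0.19) and not called at 7 days (0.02), Psmb5 was likewise higher at 48 hours (0.26) and not called at 7 days (-0.02), and Psmb6 was not called at 48 hours (-0.01) and fell by 0.10 at 7 days.

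The inducible subunits together made up 5.76 ± 0.41% of the 6 catalytic subunits, in counts per kilobase of exon, with DMSO for 48 hours and 4.23 ± 0.24% with sorafenib (SD, n = 4). At 7 days the share was 6.80 ± 0.21% with DMSO and 4.47 ± 0.063% with sorafenib. No sorafenib library reached the lowest DMSO library of its time. The difference was -1.53 percentage points at 48 hours and -2.33 at 7 days, each with an exact permutation p of 0.0286 and 0.0381 after adjustment over 4 comparisons. With DMSO the share was 1.04 points higher at 7 days than at 48 hours (adjusted p 0.0381, same test). With sorafenib it was 0.25 points higher at 7 days (adjusted p 0.143). The share rests on Psmb10, since the pairs of Psmb8 with Psmb5 and Psmb9 with Psmb6 differed by at most 0.0395 points between DMSO and sorafenib.

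Nlrc5, the transactivator of class I genes, had 0, 0, 2 and 0 counts with DMSO for 48 hours, 0, 1, 0 and 2 with sorafenib, 1, 1, 0 and 1 with DMSO for 7 days, and 2, 4, 8 and 6 with sorafenib. Each of the late sorafenib libraries held more than any vehicle library of that time. Nlrc5 was called higher at 7 days (FDR = 0.0117), where 20 counts against 3 gave a ratio of 6.74 with an interval of 2.00 to 35.4. At 48 hours it was at or under the floor in all 8 libraries, and a change was not detectable at this depth. Its level with sorafenib for 7 days was 0.542 normalized counts per kilobase, beside 226 for H2-D1 and 190 for H2-K1.

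Cd274, which encodes the checkpoint ligand PD-L1, rose at both times from a low level. With DMSO for 48 hours the libraries held 21.5, 11.3, 20.4 and 19.9 normalized counts, and with sorafenib 64.5, 19.7, 48.5 and 63.6. At 7 days the values were 19.5, 15.4, 25.0 and 14.8 with DMSO and 72.0, 69.8, 66.5 and 59.0 with sorafenib. The 7-day groups did not overlap, and at 48 hours only the lowered library fell among the DMSO libraries. Cd274 rose by 1.46 ± 0.28 on the log2 scale at 48 hours (2.75-fold, FDR = 0.000144), by 1.68 without that library, and by 1.83 ± 0.25 at 7 days (3.55-fold, FDR = 2.97e-06). The difference between the responses did not pass the test (0.37 ± 0.39, FDR = 0.507). Plgrkt and a noncoding gene on the opposite strand share 219 and 581 of the 4081 exon bases of Cd274.

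**Figure D4:**
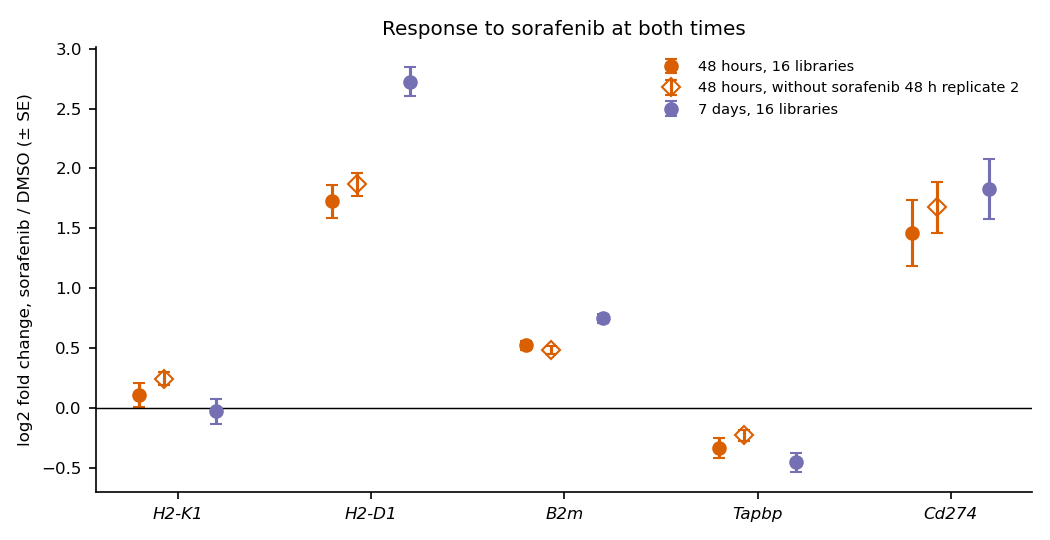
Log2 fold change of sorafenib against DMSO for the 5 genes with more than 3 counts in every library at 48 hours and 7 days (points, estimates of edgeR; bars, standard error; open diamonds, 48 hours without the library with lowered counts). H2-D1 goes from 1.73 to 2.72, B2m from 0.52 to 0.75 and Cd274 from 1.46 to 1.83, H2-K1 stays near 0 and Tapbp is below 0.

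Over the 10 genes, 6 were called at an FDR under 0.05 at 48 hours, 3 higher (H2-D1, B2m, Cd274) and 3 lower (Tapbp, Tap1, Psmb9). Of all genes tested, 54.6% were called at 48 hours, 26.9% higher and 27.7% lower, so the share among the 10 is close to the background. At 7 days 5 were called, 4 higher (H2-D1, B2m, Nlrc5, Cd274) and Tapbp lower, where 56.8% of all genes were called, 28.9% higher and 27.9% lower. The groups did not overlap for 4 of the 10 genes at 48 hours, against 48.0% of all genes, and for 7 of the 10 at 7 days, against 56.8%. Psmb9 is among the 7, with 1 count in each DMSO library and at most 1 in any sorafenib library, so only scaling parts its groups. Their median log2 fold change was 0.31 at 48 hours and 0.67 at 7 days, beside -0.05 and 0.02 over all genes tested. Low-count genes take part in these medians.

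The response differed between the times for 2 of the 10 genes, H2-D1 and B2m, where 36.8% of all genes were called, and without the lowered library for 4, with H2-K1 and Tapbp. Within the DMSO groups, 2 of the 10 were called between 48 hours and 7 days, B2m lower by -0.12 and Tapbp higher by 0.34, against 49.4% of all genes. The sorafenib groups differed for 6 of the 10, against 39.7% of all genes, with H2-D1 (1.30), Tap2, Nlrc5, Tapbp (0.22) and B2m (0.11) higher at 7 days and H2-K1 lower (-0.28). Without the lowered library H2-K1 (-0.42) and Tapbp (0.11) kept their calls and Tap2 lost its own (FDR = 0.0512). Leaving out any 1 of the 4 libraries of sorafenib for 7 days took the count from 6 to 3. The 5 comparisons share libraries, so their values are given side by side and not as separate evidence.

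Other genes of the pathway were taken from 9 lists of 99 genes, of which 86 were tested. Sorafenib raised 35 and lowered 23 of them at 48 hours (median log2 fold change 0.03, beside -0.05 over all genes), and raised 33 and lowered 33 at 7 days (-0.05 beside 0.02). In all, 58 of the 86 were called at 48 hours and 66 at 7 days, against 54.6% and 56.8% of all genes tested. The response differed between the times for 50, against 36.8% of all genes.

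**Figure D5:**
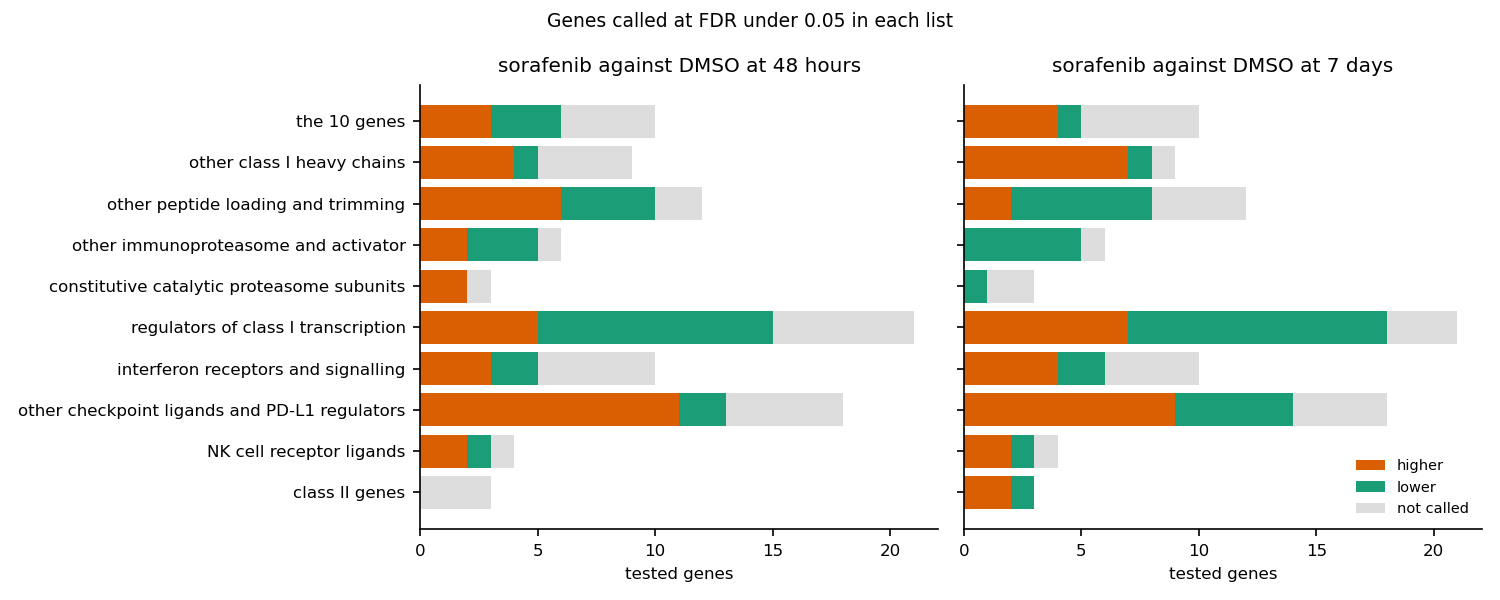
Number of tested genes called higher, called lower or not called (FDR under 0.05) with sorafenib against DMSO at 48 hours (left) and 7 days (right), for the 10 genes and 9 lists of other pathway genes. The bar of the other heavy chains is mostly higher at 7 days (7 of 9), and in the other immunoproteasome genes 5 of 6 are lower then. Of all genes tested, 28.9% were called higher and 27.9% lower at 7 days.

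The other class I heavy chains went both ways at 48 hours and were mostly higher at 7 days. At 48 hours 4 of the 9 tested were higher and 1 lower, beside 26.9% and 27.7% of all genes. Their median log2 fold change was -0.13, and -0.002 without the lowered library. By 7 days 7 were higher and 1 lower (median 1.01), beside 28.9% and 27.9% of all genes. Between the DMSO groups 1 of the 9 was higher and 6 lower at 7 days than at 48 hours (median -0.70), where 49.4% of all genes were called. Between the sorafenib groups 3 were higher and 1 lower at 7 days (median 0.22), where 39.7% of all genes were called. H2-T24, a nonclassical heavy chain, had 99.9 ± 7.60 normalized counts with DMSO for 48 hours and 229 ± 51.0 with sorafenib (SD, n = 4), a rise of 1.21 ± 0.13 (1.34 without the lowered library), and rose by 0.84 ± 0.12 at 7 days. H2-T22, a ligand of some γδ T cell receptors, was not called at 48 hours (-0.13, FDR = 0.295, and FDR = 0.982 without the lowered library) and rose from 288 ± 5.04 to 507 ± 16.7 at 7 days (0.81 ± 0.10, FDR = 4.51e-07), but 35.9% of its transcript windows of 50 bases also occurred in other genes (31.9% in H2-T10). Cd1d1, which presents lipids to natural killer T cells, fell by 0.50 ± 0.10 at 48 hours and by 0.36 ± 0.10 at 7 days.

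H2-M3 and Mr1, chosen after their values were seen, had the largest rises of that list at 7 days. H2-M3, which presents formylated peptides, had 34.4 ± 5.51 normalized counts with DMSO for 48 hours, 77.1 ± 13.2 with sorafenib for 48 hours, 13.6 ± 2.11 with DMSO for 7 days and 89.9 ± 7.49 with sorafenib for 7 days. It rose by 1.16 ± 0.15 at 48 hours (1.15 without the lowered library) and by 2.72 ± 0.17 at 7 days (FDR = 1.94e-11). Mr1, which presents metabolites of bacterial riboflavin synthesis to MAIT cells, rose by 0.97 ± 0.14 and by 2.63 ± 0.16 (FDR = 2.65e-11). In both genes the DMSO level was lower at 7 days than at 48 hours, by -1.33 for H2-M3 (FDR = 1.13e-05) and by -1.56 for Mr1 (FDR = 6.35e-07, 51.6 ± 8.0 normalized counts at 48 hours and 17.1 ± 5.96 at 7 days).

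Genes of peptide loading and trimming went both ways. Of 12 tested, 6 were higher and 4 lower at 48 hours, beside 26.9% and 27.7% of all genes. By 7 days 2 were higher and 6 lower, beside 28.9% and 27.9% of all genes. Erap1, which trims peptides in the endoplasmic reticulum, rose by 0.49 ± 0.05 at 48 hours, where the cytosolic aminopeptidase gene Npepps fell by 0.44 ± 0.03. Hspa5, a chaperone of the endoplasmic reticulum, rose by 0.49 ± 0.03 at 48 hours and 0.39 ± 0.03 at 7 days. Calr (calreticulin, part of the loading complex) fell by 0.69 ± 0.02 at 7 days and Thop1, a peptidase of the cytosol, by 0.62 ± 0.03.

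Among the other immunoproteasome genes and activators, 2 of 6 were higher and 3 lower at 48 hours, beside 26.9% and 27.7% of all genes. By 7 days 5 were lower (median -0.38), beside 27.9% of all genes. Psme1, a subunit of the PA28 proteasome activator, fell by 0.55 ± 0.04 at 48 hours and by 0.52 ± 0.04 at 7 days. Pomp, which assembles the proteasome, fell by 0.47 ± 0.04 and by 0.61 ± 0.04. With Psmb10, described above, they had the largest changes of the 6 at both times.

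Of the regulators of class I transcription, more were called lower than higher. Of 21 tested, 5 were higher and 10 lower at 48 hours (median -0.30), beside 26.9% and 27.7% of all genes. By 7 days 7 were higher and 11 lower (median -0.25), beside 28.9% and 27.9% of all genes. Without the lowered library 12 were lower at each time. Relb and Nfkb2 encode subunits of noncanonical NF-κB. Relb rose by 1.64 ± 0.09 at 48 hours (FDR = 1.74e-12) and Nfkb2 by 0.82 ± 0.11 at 48 hours (0.96 without the lowered library) and 0.83 ± 0.10 at 7 days. Rfxap, a subunit of the RFX complex that binds the X box of MHC promoters, fell by 0.80 ± 0.07 at 48 hours (by 0.89 without it). At 7 days Stat3, a transducer of cytokine signals, fell by 1.29 ± 0.04 (FDR = 3.45e-16).

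Of 10 interferon receptor and signalling genes tested, 3 were higher and 2 lower at 48 hours, and without the lowered library 5 were higher. At 7 days 4 were higher and 2 lower, and 4 lower without that library. The shares over all genes were 26.9% higher and 27.7% lower at 48 hours, and 28.9% and 27.9% at 7 days. Socs3, a feedback inhibitor of cytokine signals, fell by 1.60 ± 0.08 at 48 hours and by 2.06 ± 0.08 at 7 days (FDR = 1.99e-14). Jak2 rose by 0.74 ± 0.13 (0.92 without the lowered library) and 0.91 ± 0.12, and Ifngr1, a chain of the interferon-γ receptor, by 0.62 ± 0.05 and 0.72 ± 0.05.

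Other checkpoint ligands and regulators of PD-L1 were mostly higher at 48 hours, with 11 of 18 higher and 2 lower (median 0.39), beside 26.9% and 27.7% of all genes. They were split at 7 days, with 9 higher and 5 lower, beside 28.9% and 27.9% of all genes. Lgals9 (galectin-9) rose by 1.34 ± 0.07 at 48 hours and by 2.20 ± 0.07 at 7 days, from 207 ± 9.77 to 953 ± 44.8 normalized counts at the later time. Pvr, a ligand of TIGIT and DNAM-1, rose by 1.48 ± 0.05 and 1.27 ± 0.05. Cd200, whose product inhibits myeloid cells, fell by 1.90 ± 0.11 at 48 hours (by 1.85 without the lowered library), and at 7 days 982 counts over the 4 DMSO libraries stood against 3 over the 4 sorafenib libraries (ratio 0.00309, 95% interval 0.000636 to 0.00906, counting error only).

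Ligands of natural killer cell receptors had 4 tested genes, of which 2 were higher and 1 lower at both times, and 1 higher at 48 hours without the lowered library. The shares over all genes were 26.9% higher and 27.7% lower at 48 hours, and 28.9% and 27.9% at 7 days. Of the class II genes, whose products present peptides to CD4 T cells, 3 of 6 were tested, and at 7 days 2 of them (Cd74 and H2-DMa) were higher and H2-DMb1 lower. The chains H2-Aa, H2-Ab1 and H2-Eb1 had at most 1 count in any library.

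Markers of other cells were read beside these results. Of 7 leukocyte markers, Ptprc had at most 4 counts, Adgre1 and Cd3e had 0, Lyz2 at most 1 and Cd68 47 to 91 counts, and their summed level ranged from 60.2 to 76.2 normalized counts with DMSO for 48 hours and 58.1 to 77.1 with sorafenib, and from 63.9 to 92.8 and 63.0 to 73.9 at 7 days. Of 5 mesenchymal markers, all had more than 3 counts in every library, and their summed level went from 46738 to 49825 with DMSO to 133486 to 154791 with sorafenib at 48 hours, and from 66171 to 67940 to 114450 to 119563 at 7 days. The sum is mostly Col1a1 and Acta2, and the list went both ways, with 3 called higher and 1 lower at 48 hours and 3 higher and 2 lower at 7 days. Pdgfrb had 1649 to 2011 counts with DMSO and 455 to 1165 with sorafenib at 48 hours. These are raw counts, not scaled for library size. Pdgfrb lies on chromosome 18, after the place on chromosome 14, so the lowered library takes part in its sorafenib range. The summed level of 11 hepatoblast and epithelial markers went from 34870 to 36229 to 12312 to 14099 at 48 hours and from 18369 to 20248 to 6234 to 6506 at 7 days. That sum is mostly Dlk1 (30795 to 38122 counts with DMSO and 7556 to 10224 with sorafenib at 48 hours). Of 8 tested, 1 was called higher and 5 lower at 48 hours, and 2 higher and 6 lower at 7 days. Beside these lists, 26.9% of all genes were higher and 27.7% lower at 48 hours, and 28.9% and 27.9% at 7 days. Sox9 had 204 to 288 counts with DMSO and 454 to 700 with sorafenib at 48 hours, and Cdh1 70 to 92 and 172 to 244 at 7 days. The summed level of 4 endothelial markers went from 55.7 to 98.0 with DMSO to 119 to 151 with sorafenib at 48 hours and from 36.8 to 61.3 to 196 to 228 at 7 days, mostly through Kdr (26 to 41 counts and 163 to 270 at 7 days), while Cdh5 had at most 2 counts and Pecam1 at most 9. The part of these shifts in the values of the class I genes was not tested.

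The genes whose pattern was most like that of H2-K1, B2m and Cd274 were found by Pearson correlation of log2 normalized counts over the 15 libraries without the lowered one, among genes averaging 100 or more normalized counts. The points share the 4 groups and the libraries, and the values are a description. H2-K1 was most like Ftx (r = 0.93), Adamts19 (0.93) and Mtus1 (0.92). B2m was most like Tenm4, Grina and Capn1 (0.99 each), and Cd274 like Cnnm4, Gfpt2 and Klf8 (0.97 each).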

How the data were processed

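Counts per gene were deposited by the authors for 16 libraries without normalization, pooling or filtering (40840 genes, whole numbers). Per the submitters' processing notes and the study's methods, stranded mRNA libraries were aligned to GRCm39 (mm39) with STAR 2.7.1a and counted with featureCounts 2.0.6 from Subread, and DESeq2 1.40.2 was used for testing. The annotation and the strand setting of the counting are not given in the sources used here, so genes that overlap or resemble each other are uncertain.

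The 20444 genes with at least 10 counts in total entered edgeR 4.0.16 (R 4.3.3): TMM normalization, 1 quasi-likelihood model over all 16 libraries with a coefficient for each of the 4 groups and no block, and Benjamini-Hochberg FDR over all genes tested (called under 0.05). The comparisons were drug against vehicle at each time, their difference, and time within each treatment. Errors of fold changes are standard errors. Shares within a library were compared, 4 against 4, by exact permutation (two-sided). Low counts are given as ratios with exact binomial intervals, which cover counting error only, with a floor of 3 counts. Positions, exon lengths and overlaps came from GENCODE vM39 on GRCm39, matched by symbol, and promoters from RefSeq (GRCm38.p6, a different build from that of the counts). The place on chromosome 14 is the split in genome order that best separated the mean log2 deviations of a library from the median of its other replicates, over genes averaging 100 or more counts, and its size is a difference of medians. Between replicates the lowest chi-square per gene was 1.58, so no pair was taken as 1 library.

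Alternatives were DESeq2 1.42.0, limma 3.58.1 (voom with quality weights), other size factors, other filters, a fold threshold, an offset for the lowered counts, the 8 libraries compared, a replicate block, summed heavy chains, and each library left out in turn. The steps were tested on simulated data. The H2-D1 share, its alternatives and the full response element core were added after the data were seen. All 10 genes are named. Of the pathway lists, the 3 genes with the largest changes among called genes averaging 100 or more normalized counts were named in each drug comparison, with the catalytic proteasome subunits, except for items that are not reported here. Cd74, H2-DMa, H2-DMb1, H2-M3 and Mr1 were named after their values were seen. The 10 genes and the lists were chosen with earlier results of these data known.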

Additional observations from a re-analysis of the deposited data

Results flagged for a closer look

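A library far from the other 3 of its group was sought with Dixon's test, which chance alone passes in about 1 of 20 groups. In replicate 2 of sorafenib for 48 hours, the library with lowered counts, H2-K1 (500.5 normalized counts) and H2-D1 (178) stood below the other 3 libraries. B2m was lowest in replicate 3 of sorafenib for 7 days (3239 normalized counts), Cd274 in replicate 2 of DMSO for 48 hours (11.3), and Nlrc5 was highest in replicate 3 of DMSO for 48 hours (2.04, from 2 counts).

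The sorafenib response differed between 7 days and 48 hours for H2-D1 by 1.00 on the log2 scale (FDR = 0.000291) and for B2m by 0.23 (FDR = 0.00246, edgeR's quasi-likelihood test), with the larger rise at 7 days in both.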

How the results depend on the processing

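H2-D1, B2m, Tapbp and Cd274 kept their direction and their call against DMSO at both times under every alternative refitted for single genes, while a threshold of 1 on the absolute log2 fold change, applied to counts only, leaves out B2m and Tapbp. H2-K1 at 48 hours was called higher without replicate 2 of sorafenib for 48 hours (0.24), with an offset for its lowered counts (0.25) and with voom (0.21). The heavy chains summed to 1 feature were called higher too (0.27), but that feature includes H2-D1 and is not a call of H2-K1. Summing the heavy chains turned the direction of H2-K1 at 7 days (0.82), in the difference of responses (0.55) and between the sorafenib groups (0.30), and of H2-D1 between the DMSO groups (-0.25), by construction, since 1 value then stands for all. Of the alternative values for the 10 genes, those of the summed feature counted among them, 690 kept direction and side of the threshold, 30 lost and 21 gained a call and 9 turned direction. For the other pathway genes 1110 kept both, 8 lost a call and 5 turned.

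The count of the 10 genes called moved by over 1.5 times with an added threshold of 1 on the absolute log2 fold change (3 at 7 days, 0 for the difference of responses, 0 between the DMSO groups, 3 between the sorafenib groups), with the offset (4 for the difference, 4 between the DMSO groups), with voom (4 for the difference), with only the 8 libraries compared (4 between the DMSO groups), and with at least 10 counts in every library (3 between the sorafenib groups). The fold threshold left 12, 19 and 10 of 86 pathway genes called at 48 hours, at 7 days and for the difference. Leaving out 1 library gave 5 to 6 of the 10 genes at 48 hours, 5 to 6 at 7 days, 2 to 4 for the difference, 2 to 4 between the DMSO groups and 3 to 6 between the sorafenib groups. The 4 came without replicate 2 of sorafenib for 48 hours, and the 3 without any 1 library of sorafenib for 7 days. For the pathway genes these counts were 54 to 61, 62 to 72 and 44 to 62.

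The H2-D1 share differed by 15.9 to 16.7 points at 48 hours, 37.9 to 39.3 at 7 days, 3.14 to 3.93 between the DMSO groups and 25.1 to 26.5 between the sorafenib groups with 1 library left out, and the inducible proteasome share by -1.67 to -1.40, -2.40 to -2.23, 0.90 to 1.17 and 0.19 to 0.36. With 3 against 4 libraries the smallest exact p is 0.0571, so these say nothing about stability of the calls. In single pairs the inducible share differed at 48 hours, at 7 days and between the DMSO groups by 0.00805, 0.0395 and 0.0198 points for Psmb8 with Psmb5, by -0.0146, -0.00827 and -0.00385 for Psmb9 with Psmb6, and by -6.52, -8.65 and 2.16 for Psmb10 with Psmb7 (exact permutation p adjusted over 4 comparisons 0.0571, 0.0571 and 0.0762).

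With 1 library left out, the values ranged from -0.065 to 0.0015 for H2-K1 at 7 days, -0.14 to 0.14 for Cd274 between the DMSO groups, -0.94 to 0.09 for Tap2 at 48 hours and -0.026 to 0.0021 for Psmb5 at 7 days. The remaining turns of direction were Cd274 between the DMSO groups with total counts only (-0.012) and without replicate 2 of DMSO for 48 hours or replicate 3 of DMSO for 7 days (-0.14 each), H2-K1 at 7 days without replicate 3 of sorafenib for 7 days (0.0015), Tap2 at 48 hours without replicate 2 of DMSO for 48 hours (0.089), Psmb5 at 7 days with total counts only (0.0065), with at least 1 count in any library (0.0064), with at least 10 counts in every library (0.00932) and without replicate 1 of sorafenib for 7 days (0.0021), and Psmb6 at 48 hours with at least 1 count in any library (0.027). Scaling by total counts only moved the median of all genes to -0.12 at 48 hours and to 0.12 for the difference. The cause of these changes was not tested.

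With the replicate number as a replicate block, 5, 4, 2, 2 and 4 of the 10 genes were called at 48 hours, at 7 days, for the difference, between the DMSO groups and between the sorafenib groups, and 55, 67 and 46 pathway genes in the first 3. Nlrc5 at 7 days (2.51) and Tapbp between the sorafenib groups lost their calls. Libraries of the same number had correlations of their deviations of -0.05 to 0.01 at 48 hours and -0.00 to 0.12 at 7 days (4 pairs each), so they share only a number. For Tap1, Tap2, Psmb8, Psmb9 and Nlrc5 the depth limits what could be seen.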
